A study of Mus musculus with 88 samples.

Results

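The genes described here encode 10 proteins that make or carry small RNAs: Drosha, Dgcr8 and Dicer1, which cut microRNA (miRNA) and small interfering RNA (siRNA) precursors, the Argonautes Ago2 and Ago3, which bind the finished small RNAs, and Piwil2, Mov10l1, Pld6, Ddx4 and Henmt1 of the Piwi-interacting RNA (piRNA) pathway. They were chosen by name, and 1 feature of 38540 in the count table was assigned to each. The RNA came from single fully grown germinal vesicle oocytes of C57BL/6Babr virgin females, 12 weeks old (young) or 44 to 54 weeks old (old), and carried no treatment or transgene. Each oocyte also had a chromatin configuration that the study predicted from its transcripts, either non-surrounded nucleolus (NSN), the transcriptionally active form, or surrounded nucleolus (SN), the later and transcriptionally quiet form. The study did not examine the chromatin itself, and it holds it likely that the predicted labels differ from the true configuration. It found fewer SN oocytes than reported before, above all in the old group. NSN and SN below name the predicted labels. The values below come from 30 young NSN, 12 young SN, 37 old NSN and 8 old SN oocytes. The labels tie no oocyte to a mouse, so each age counted as 1 sample, no difference was tested and no p-value is given.

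In the mouse oocyte, Dicer cuts long double-stranded RNA into endogenous siRNAs that Argonaute proteins use to silence retrotransposons and some messenger RNAs. The miRNA branch starts in the nucleus, where the Microprocessor of Drosha and Dgcr8 releases hairpins that Dicer then trims, and it is known to have little activity in full-grown mouse oocytes. The piRNA branch guards the germ line against transposons, and its loss makes male but not female mice sterile.

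All 10 genes gave counts, and Piwil2 was the only one not detected in every oocyte. The 2 piRNA genes Ddx4 and Piwil2 were higher in SN than in NSN oocytes, by 1.42 and 2.98 on the log2 scale in old oocytes and by 0.97 and 1.56 in young ones. Dicer1 and Drosha differed by at most 0.09 on that scale in all 5 comparisons of age and configuration. With age, Ago2 was higher by 0.18, and no member differed 1.5-fold between the ages when configurations were pooled.

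Total counts ranged from 1579196 to 8231046 per young oocyte and from 976456 to 5448310 per old oocyte, and levels are given as CPM, the count of a gene scaled to that total. The total of old oocyte 15, 1 of the 8 old SN oocytes, differed from the one in the study's table of oocytes, and without it the old SN over NSN log2 ratios were 1.43 for Ddx4 and 3.04 for Piwil2. A group's CPM is its summed count over its summed total, the intervals on CPM and on log2 ratios are exact 95% intervals, and they cover counting error only. The libraries had no molecular identifiers, so reads are not independent molecules, and differences between oocytes are shown by the SD or range over oocytes. A fold change was counted when it passed 1.5-fold in a feature with a mean count of at least 10 and at least 3 counts in both groups, which 12408 features and 9 of the 10 members met. Piwil2, with fewer counts, is left out of those counts. Of 14 oocyte markers 12 had a feature, and all 12 were present in every oocyte. Of 16 granulosa markers 14 had a feature, 8 to 10 of these were under 1 CPM in each configuration and age, and their summed level had a median of 42.8 to 49.7 CPM in the 4 groups. Of the others, Kitl and Nr5a2 were counted in every oocyte. Of 10 markers of theca, stroma, vessel and blood 6 had a feature, 5 of these were under 1 CPM in each group, and their summed level had a median of 61.9 to 66.9 CPM, nearly all of it from Pecam1, which was counted in every oocyte.

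RefSeq promoter windows (250 bases before to 50 bases after the start, build GRCm38.p6) were found for 8 of the members, with none for Ago2 or Piwil2. The windows of Ddx4, the member with the largest difference among those passing the count filter, and Dicer1, the member with the highest counts and almost no difference, are shown 5′ to 3′ on the strand of the gene with CpG letters in capitals. 
Ddx4, chr13:112652261-112652560, minus strand: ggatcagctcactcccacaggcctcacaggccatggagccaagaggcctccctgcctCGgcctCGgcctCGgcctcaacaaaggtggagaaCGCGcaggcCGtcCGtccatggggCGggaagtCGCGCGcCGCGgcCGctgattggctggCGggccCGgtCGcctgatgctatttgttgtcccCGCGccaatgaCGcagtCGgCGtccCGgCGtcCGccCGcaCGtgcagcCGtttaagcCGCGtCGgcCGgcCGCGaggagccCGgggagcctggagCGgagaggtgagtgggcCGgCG
Dicer1, chr12:104751903-104752202, minus strand: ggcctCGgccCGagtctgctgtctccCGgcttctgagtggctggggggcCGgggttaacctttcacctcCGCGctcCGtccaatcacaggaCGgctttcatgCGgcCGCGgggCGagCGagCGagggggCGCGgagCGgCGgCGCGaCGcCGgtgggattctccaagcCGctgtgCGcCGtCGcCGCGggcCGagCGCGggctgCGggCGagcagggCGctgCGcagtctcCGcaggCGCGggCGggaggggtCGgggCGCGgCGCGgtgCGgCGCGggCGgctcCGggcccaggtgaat
The Ddx4 window held 38 CpGs, more than 95% of all 32851 windows, and the Dicer1 window held 49, more than 99%, against a median of 7 over all windows. CpG-rich starts are usual for both housekeeping and germline genes. The palindromic E-box CACGTG, a sequence known from germline promoters, occurred at position 222 of the Ddx4 window and also in the window of Mov10l1 and in 1 of the 2 windows of Pld6, and in none of Dicer1, Drosha, Dgcr8, Ago3 and Henmt1. It was in 7.15% of all windows. GCGGGAA, read on either strand, occurred in the Ddx4 window alone among the members and in 4.60% of all windows. These matches are letters in a sequence and do not show binding.

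**Figure D1:**
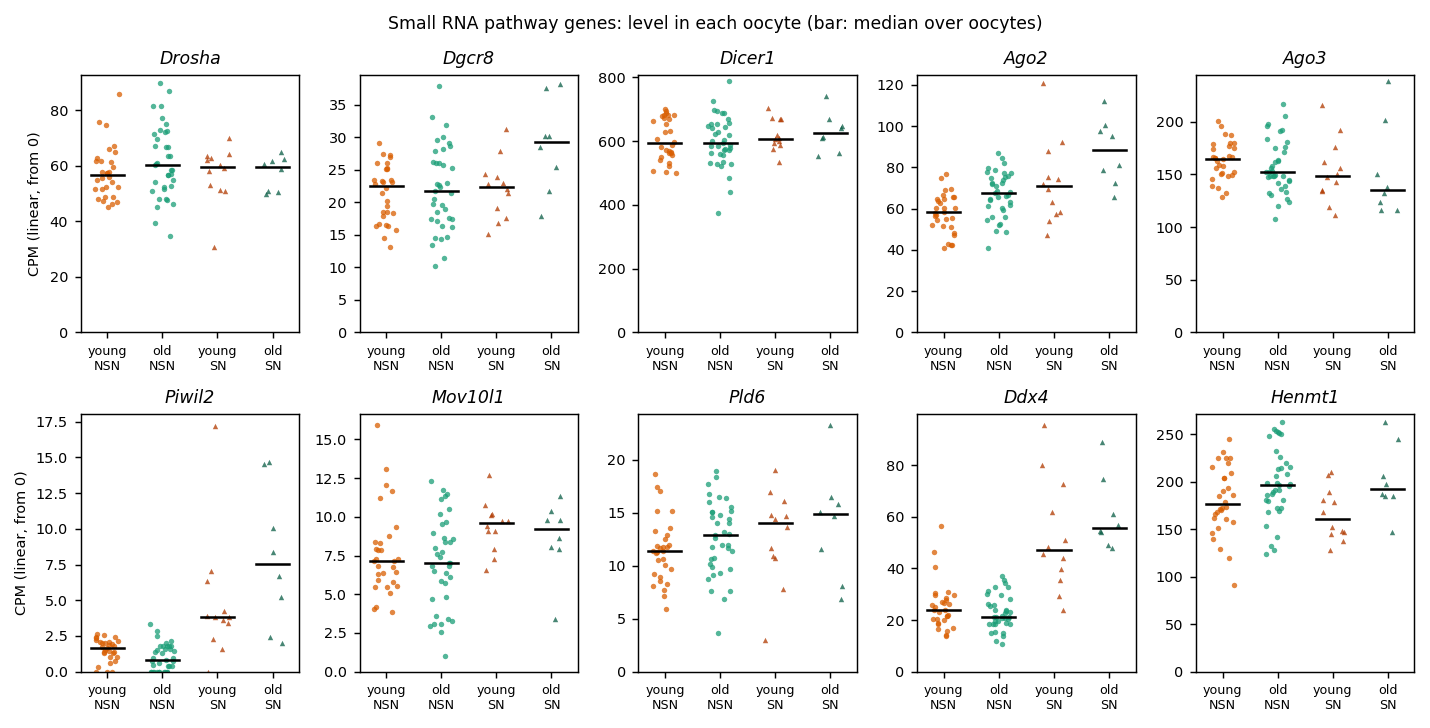
CPM of each member in each oocyte (points; linear axis from 0), for young NSN (n = 30), old NSN (n = 37), young SN (n = 12) and old SN (n = 8) oocytes, with a bar at the median. Ddx4 and Piwil2 sit higher in SN oocytes, and in Ddx4 all 8 old SN oocytes lie above all 37 old NSN oocytes, while Dicer1 and Drosha lie at similar heights in the 4 groups.

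Of the Microprocessor pair, Drosha differed little between groups. Drosha, the nuclear endonuclease, had 57.9 CPM in young NSN, 57.7 in young SN, 61.2 in old NSN and 57.6 in old SN oocytes. Its single oocytes ran from 45.01 to 85.9 CPM (median 56.7) in young NSN and from 34.8 to 89.9 (median 60.4) in old NSN oocytes, so the ranges overlapped widely. The log2 ratio of old over young was 0.07 (0.02 to 0.11), and that of SN over NSN was −0.01 (−0.08 to 0.07) in young and −0.09 (−0.18 to 0.00) in old oocytes. Drosha also has 1 feature on the other strand within its span, and because the library preparation marks no strand the reads of overlapping features cannot be told apart.

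Dgcr8, the RNA-binding partner of Drosha, was present at about the same level in 3 of the groups and was higher in old SN oocytes. It had 21.3 CPM in both young NSN and young SN, 22.1 in old NSN and 29.4 (27.1 to 31.9) in old SN oocytes. The 8 old SN oocytes ran from 17.9 to 38.2 CPM with a median of 29.3, and the 37 old NSN oocytes from 10.2 to 37.9 with a median of 21.7. Thus 1 of the 8 lay above every old NSN oocyte and 6 of the 8 above their median, and the ranges overlapped. The SN over NSN log2 ratio was 0.41 (0.28 to 0.54) in old oocytes and 0.00 (−0.12 to 0.12) in young oocytes, and the old over young ratio within SN oocytes was 0.46 (0.31 to 0.62). Of all features, 3.73% had a larger old over young ratio in SN oocytes.

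Dicer1, the enzyme that makes both miRNAs and endogenous siRNAs, was the member with the most counts and the least change. Its level was 607 CPM in young NSN, 609 in young SN, 603 in old NSN and 616 in old SN oocytes. Single oocytes spanned 500.3 to 701 CPM (median 593) in young NSN, 535 to 703 (median 608) in young SN, 375 to 788 (median 595) in old NSN and 553 to 741 (median 626) in old SN oocytes. The 4 groups overlapped along most of their ranges, and the lowest and the highest values were both in old NSN oocytes. The old over young log2 ratio was −0.00 (−0.02 to 0.01), an interval that covers counting error and leaves out differences between mice.

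The Argonautes differed between groups in opposite directions and by small amounts. Ago2, the Argonaute that can slice a matched target, had 58.0 CPM (SD 9.49, n = 30) in young NSN, 66.7 (SD 10.9, n = 37) in old NSN, 72.1 (SD 20.2, n = 12) in young SN and 87.5 (SD 15.9, n = 8) in old SN oocytes. The lowest, median and highest oocytes were 40.7, 58.2 and 76.7 CPM in young NSN, 40.8, 67.7 and 86.8 in old NSN, 47.1, 70.8 and 121 in young SN, and 65.5, 88.2 and 112 in old SN. In both ages the SN group was the higher, and in both configurations the old group was the higher, with overlapping ranges throughout.

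In log2 terms Ago2 was higher in old oocytes by 0.18 (0.14 to 0.23) in all oocytes, 0.20 (0.15 to 0.25) in NSN and 0.28 (0.19 to 0.37) in SN oocytes, and 29 of the 37 old NSN oocytes lay above the young NSN median. It was higher in SN oocytes by 0.31 (0.25 to 0.38) in young and 0.39 (0.31 to 0.47) in old oocytes. Every one of these differences was smaller than 1.5-fold, and 6.75% of all features had a larger old over young ratio with configurations pooled. Across oocytes the Ago2 level was also weakly and inversely related to the total count (Spearman −0.23 over 87 oocytes, as a description), and old oocytes had the lower totals. The part of depth in the age difference was not tested beyond thinning every oocyte to 900000 counts, which left the direction the same. Ago2 has 1 feature on the other strand within its span.

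Ago3, an Argonaute without well-defined slicing activity, was the more abundant of the pair by reads, with 164 CPM in young NSN, 155 in young SN, 157 in old NSN and 141 in old SN oocytes. Single oocytes ran from 111 to 215 CPM in the 12 young SN and from 116 to 238 in the 8 old SN oocytes, with medians of 149 and 135, so the groups overlapped. The old over young log2 ratio was −0.07 (−0.09 to −0.04), and the SN over NSN ratio was −0.08 (−0.12 to −0.03) in young and −0.15 (−0.21 to −0.09) in old oocytes. Over the 87 oocytes Ago2 and Ago3 were inversely related (Spearman −0.34 at equal depth, a description). The points share libraries and age groups. The value was −0.33 over the 67 NSN oocytes, −0.29 in young NSN and −0.15 in old NSN oocytes.

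Ago3 has 2 features on the other strand within its span. Among them is a short feature (chr4:126365819-126372616, plus strand, GRCm38), whose median was 28.8 CPM in old SN oocytes. The study's gene table gives this feature an older symbol of Ago3, so a value the study assigns to that gene may belong to it, whereas the Ago3 values above come from the same-strand feature that spans the gene. Its level was 14.2 CPM in young NSN, 23.1 in young SN, 11.1 in old NSN and 29.8 in old SN oocytes, giving SN over NSN log2 ratios of 0.70 (0.58 to 0.83) and 1.42 (1.28 to 1.57). Ago3 itself was slightly lower in SN oocytes, so the feature and its host ran in opposite directions. Reads of the 2 strands cannot be separated, and the value of this feature is therefore uncertain.

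Ddx4, the germ cell RNA helicase known as mouse vasa homologue, was the member with the clearest difference between configurations. It had 25.3 CPM (24.3 to 26.4) in young NSN, 49.7 (47.5 to 52.0) in young SN, 22.8 (21.9 to 23.8) in old NSN and 61.2 (57.8 to 64.8) in old SN oocytes. The lowest, median and highest oocytes were 13.9, 23.8 and 56.5 CPM in young NSN, 24.1, 46.97 and 95.7 in young SN, 10.7, 21.4 and 37.2 in old NSN, and 47.9, 55.8 and 89.0 in old SN. In old oocytes the groups were apart, with all 8 SN oocytes above all 37 NSN oocytes, a separation that 0.403% of all features showed in this direction. In young oocytes the groups overlapped, with 4 of 12 SN oocytes above every NSN oocyte and all 12 above the NSN median.

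The SN over NSN log2 ratio of Ddx4 was 1.42 (1.32 to 1.53) in old and 0.97 (0.89 to 1.06) in young oocytes, or 2.68-fold and 1.96-fold. Leaving out each SN oocyte in turn gave 1.32 to 1.48 in old and 0.85 to 1.13 in young oocytes. Among the 9 members that passed the filter, Ddx4 alone passed 1.5-fold, and it did so in both ages, beside 3.63% of all features in young and 12.4% in old oocytes. The configuration was itself predicted from transcripts of these oocytes that are overexpressed in SN oocytes, and whether Ddx4 or Piwil2 was among the transcripts used was not known here, so these differences are descriptions.

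Oocyte numbers fall into 6 runs of consecutive numbers, 3 per age, whose meaning the labels do not give. Within runs, Ddx4 in SN over NSN oocytes was higher in 5 of the 6, by 1.33, 1.47 and 1.39 on the log2 scale in the old runs 9 to 16, 25 to 31 and 41 to 48, and by 1.06 and 1.04 in the young runs 17 to 24 and 33 to 39. In the young run 1 to 7, which held 1 SN oocyte and 13 NSN oocytes, Ddx4 was 24.1 CPM in the SN oocyte and 26.5 CPM in the NSN oocytes. That oocyte was also the lowest young SN oocyte.

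Piwil2, the PIWI protein MILI that binds piRNAs, had the lowest counts of the members. It had 1.54 CPM (1.30 to 1.81) in young NSN, 4.54 (3.89 to 5.27) in young SN, 1.05 (0.85 to 1.28) in old NSN and 8.29 (7.07 to 9.65) in old SN oocytes. The lowest, median and highest were 0, 1.69 and 2.62 CPM in young NSN, 0, 3.82 and 17.2 in young SN, 0, 0.81 and 3.35 in old NSN, and 1.99, 7.54 and 14.7 in old SN oocytes. Thus 6 of 8 old SN oocytes exceeded every old NSN oocyte, and 9 of 12 young SN oocytes exceeded every young NSN oocyte. The SN over NSN log2 ratio was 2.98 (2.61 to 3.36) in old and 1.56 (1.24 to 1.89) in young oocytes. The ratios were larger than those of Ddx4, and the summed counts behind them were small, at 165 in old SN and 98 in old NSN oocytes.

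The SN over NSN ratio of Piwil2 was above 0 in each of the 6 runs, from 1.26 in young run 1 to 7 to 3.26 in old run 41 to 48. Leaving out each SN oocyte in turn gave 2.81 to 3.14 in old and 1.14 to 1.74 in young oocytes. Over the other settings tried the ratio ranged more widely, from 2.76 to 3.29 in old and 0.88 to 2.29 in young oocytes. In the young group 1 SN oocyte, at 17.2 CPM, was well above the next. Piwil2 was counted in 27 of 30 young NSN, 11 of 12 young SN, 26 of 37 old NSN and 8 of 8 old SN oocytes. At an equal depth of 900000 counts these became 20 (66.7%, exact 95% interval 47.2 to 82.7), 11 (91.7%, 61.5 to 99.8), 19 (51.4%, 34.4 to 68.1) and 8 (100%, 63.1 to 100). These intervals take each oocyte as independent and leave out that oocytes share mice, so the shares are descriptions. For the 15 oocytes with no Piwil2 count, the limit that a count of 0 allows, 3 counts of the total, lay between 0.85 and 3.07 CPM, so a low level was not detectable at this depth.

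**Figure D2:**
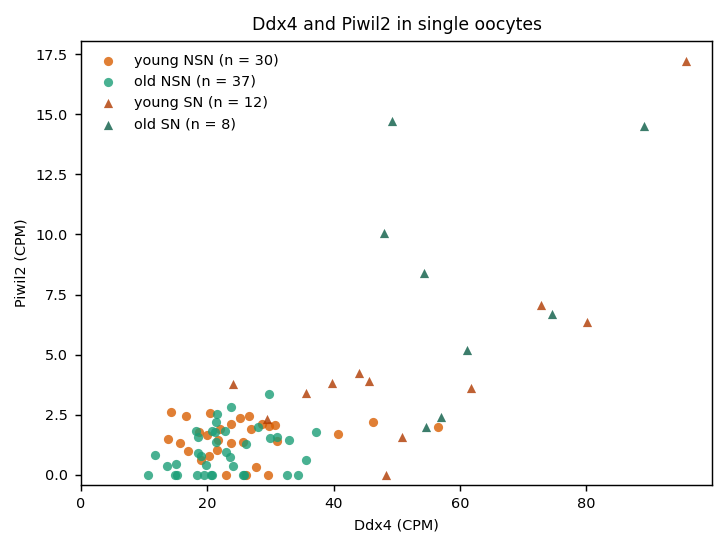
CPM of Ddx4 (x axis, from 0) against CPM of Piwil2 (y axis) in each of the 87 oocytes, circles for NSN and triangles for SN. SN oocytes extend to the upper right, to 95.7 CPM of Ddx4 and 17.2 CPM of Piwil2, while every NSN oocyte stays at or below 3.35 CPM of Piwil2.

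Over the 87 oocytes Ddx4 and Piwil2 were positively related at equal depth (Spearman 0.55), and over the 67 NSN oocytes the value was 0.34. These are descriptions, the points share libraries and age groups, and Piwil2 counts per oocyte are sparse. Of the 3 granulosa markers that passed the count filter, 1 was higher and 2 were lower in old SN than in old NSN oocytes (median log2 ratio −0.07), Kitl being the higher (0.80). The summed oocyte markers had a median of 33612 CPM in old SN against 26745 in old NSN oocytes. The part of these in the Ddx4 and Piwil2 differences was not tested.

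The other piRNA members differed less. Mov10l1, the helicase that handles piRNA precursors, had 7.62 CPM in young NSN, 9.24 in young SN, 7.37 in old NSN and 8.89 in old SN oocytes, with single oocytes from 1.02 to 15.9 CPM. Its SN over NSN log2 ratio was 0.28 (0.09 to 0.46) in young and 0.27 (0.02 to 0.51) in old oocytes. Pld6, the mitochondrial endonuclease that cleaves piRNA precursors, had 11.5, 13.7, 12.8 and 15.3 CPM in the same order, with ratios of 0.25 (0.10 to 0.40) and 0.26 (0.08 to 0.45). In both genes the SN and NSN ranges overlapped widely, and the direction for Pld6 in old oocytes turned to −0.15 without the oocytes numbered 41 to 48 and to −0.31 in the oocytes with the suffix A. Their old over young ratios were −0.08 (−0.21 to 0.05) and 0.12 (0.02 to 0.22). Mov10l1 has 1 feature on the other strand within its span.

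Henmt1, the methyltransferase that protects the ends of piRNAs, had the most reads among the piRNA members, with 179 CPM in young NSN, 163 in young SN, 196 in old NSN and 198 in old SN oocytes. Single oocytes ran from 91.0 to 244 CPM in young NSN and from 124 to 263 in old NSN oocytes, with medians of 176 and 197. Of the 37 old NSN oocytes, 28 lay above the young NSN median. The old over young log2 ratio was 0.17 (0.14 to 0.19) in all oocytes, 0.12 (0.09 to 0.15) in NSN and 0.28 (0.22 to 0.34) in SN oocytes. Its level was weakly and inversely related to the total count (Spearman −0.26), as that of Ago2 was, and the part of depth was not tested further.

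**Figure D3:**
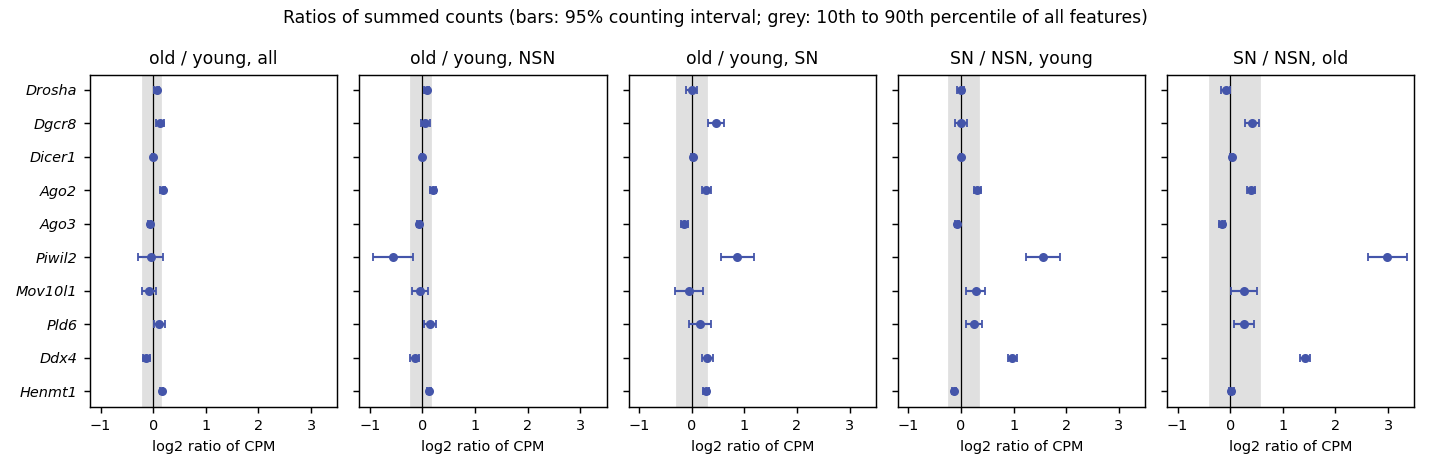
Log2 ratio of CPM for each member in the 5 comparisons, as points with 95% counting intervals; the grey band is the 10th to 90th percentile over 12408 features. Ddx4 and Piwil2 lie right of the band in both SN over NSN panels, and in the panel of old over young with configurations pooled Ago2 and Henmt1 are just beyond it.

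Counted over the members, 0 of 9 passed 1.5-fold in old over young with configurations pooled, beside 0.701% of all features, 0 in NSN oocytes (1.02%) and 0 in SN oocytes (3.57%). With 1 sample a group there is no test. Piwil2, outside those counts, was lower in old than in young NSN oocytes (log2 −0.55, −0.93 to −0.17) and higher in old than in young SN oocytes (0.87, 0.55 to 1.18). The latter was 0.05 in oocytes whose names lack the suffix A and 1.76 in those that have it, and the labels do not say what the suffix means. The median log2 ratio over the 10 members was 0.03 for old over young, 0.22 within SN oocytes, 0.13 for SN over NSN in young and 0.27 in old oocytes, and over all features it was −0.01, −0.01, 0.01 and −0.00. Those features all passed the count filter, and over the 9 members that did so the medians were 0.07, 0.16, 0.01 and 0.26, so in young SN over NSN oocytes the members were level with the features at large.

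The ages were also compared by run, in NSN oocytes and in all oocytes. Ago2 was the only member whose 3 old runs lay above its 3 young runs. In NSN oocytes the young runs had 56.9, 57.4 and 61.1 CPM and the old runs 65.6, 62.1 and 71.1, and in all oocytes they had 57.5, 63.0 and 66.0 against 66.7, 69.6 and 73.3. Of all features, 5.14% had old runs above young ones in NSN oocytes and 6.21% in all oocytes, and 13.1% and 13.3% had runs that did not overlap in either direction, so 1 of 10 members is near what the features at large showed. The other 9 overlapped in both. Henmt1 had its highest NSN run among the young, at 217 CPM in run 33 to 39, against 213, 201 and 178 in the old runs.

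**Figure D4:**
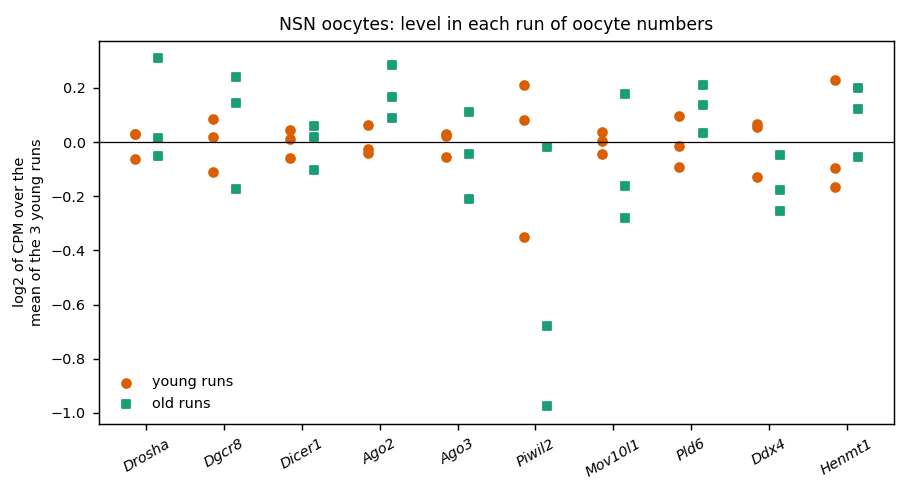
Level of each member in NSN oocytes in each of the 6 runs of oocyte numbers, as log2 of CPM over the mean of the 3 young runs (circles young, squares old). In Ago2 the 3 old runs sit above the 3 young runs, and in the other 9 members the runs overlap.

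Spread over oocytes beyond counting noise, the squared coefficient of variation (CV) after subtracting its counting part, was larger in old than in young oocytes for 6 of 9 members with a value, beside 73.8% of 12145 features. The log2 ratio was 1.37 for Dgcr8, 0.99 for Ago3, 0.92 for Dicer1, 0.54 for Mov10l1, 0.49 for Drosha and 0.05 for Ddx4. It was −0.15 for Henmt1, −0.17 for Pld6 and −0.56 for Ago2. The sign for Pld6 depended on the setting, with 1.61 at equal depth and 0.17 with all 88 oocytes. The ratio of Pld6 stayed negative in NSN oocytes, with CPM and within runs. That of Dgcr8 was 0.70 at equal depth. The median over the 9 was 0.49 against 0.46 over all features. This closeness did not hold under other settings, with 0.22 against 0.52 in NSN oocytes, 0.16 against 0.43 within runs and 0.81 against 0.48 at equal depth. The CV of Dicer1 was 10.0% in young and 12.7% in old oocytes, counting noise included, and that of Ddx4 was 55.2% and 56.8%. The study took old oocytes from more females than young ones, at 44 to 54 weeks against 12 weeks. The part of this in the spread was not tested.

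Among NSN oocytes alone Ddx4 varied less in old than in young oocytes (log2 ratio −0.81, with CVs of 36.3% and 29.1% in young and old). The highest young NSN oocyte was at 56.5 CPM of Ddx4 against a median of 23.8. Its part in this ratio was not tested. Ago2, which had the largest negative ratio over all oocytes, was at −0.04 among NSN oocytes. The highest young Ago2 value, 121 CPM, belonged to an SN oocyte. The ratio of Dgcr8 remained positive in NSN oocytes at 1.17, and that of Ago3 at 1.10. With configuration held to NSN, 5 of the 9 were above 0, beside 73.8% of features.

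**Figure D5:**
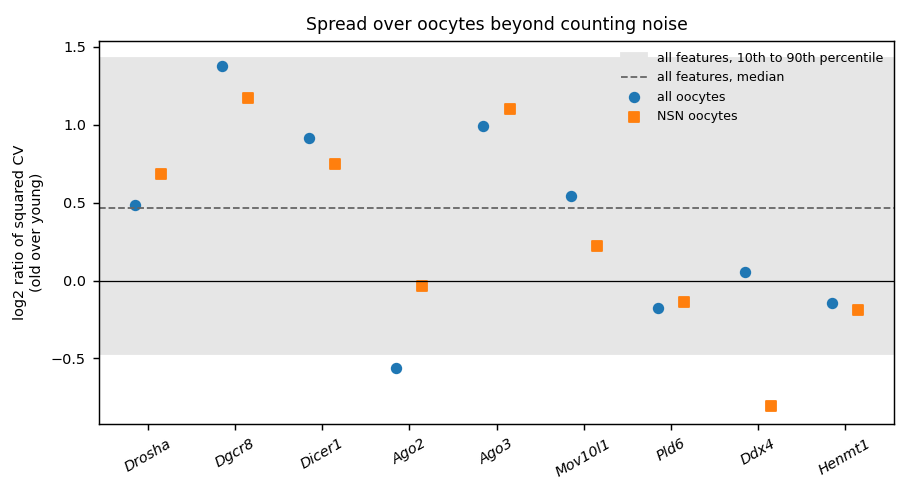
Log2 ratio (old over young) of squared CV beyond counting noise for the 9 members with a value, in all oocytes (circles) and NSN oocytes (squares); the grey band and dashed line are the 10th to 90th percentile and median of 12145 features. The band and line are those of all oocytes. Dgcr8, Ago3, Dicer1 and Drosha are above the median line in both sets. Ago2 is below the band in all oocytes, and Ddx4 is below it in NSN oocytes.

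Levels between genes were compared per kb of GENCODE exon union. By CPM per kb, Henmt1 was highest (65.3 in young, 73.3 in old) and Dicer1 next (36.3 and 36.1), followed by a group of Ddx4, Ago3 and Drosha between 9.31 and 10.7, whose neighbours could not be separated beyond their spread. Pld6 (6.92 and 7.52), Ago2 (4.42 and 5.01), Dgcr8 (2.77 and 3.04) and Mov10l1 (1.93 and 1.83) came below, and Piwil2 was lowest (0.45 and 0.44). The counted feature of Henmt1 runs 5743 bases beyond its GENCODE gene, and those of Pld6 and Ddx4 3179 and 2914 bases. When those bases were added to the length, Dicer1 led with 36.2 in young and 36.1 in old, and Henmt1 followed with 20.8 and 23.3, Ddx4 came to 5.45 and 4.99, and Pld6 to 2.46 and 2.68, which put Pld6 below Dgcr8. The order of Henmt1 and Dicer1, and the places of Ddx4 and Pld6, therefore depend on the length taken.

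By exon union, Ddx4 ranked 3 in SN oocytes (16.5 and 20.3 CPM per kb in young and old). Every old SN oocyte then had more Ddx4 than Drosha per kb. In old NSN oocytes Ddx4 and Pld6 (7.57 and 7.26) could not be separated, since 54.1% of the oocytes had more Ddx4. With the bases beyond the gene added, Ddx4 fell below Drosha and Ago3 over all young and over all old oocytes. The longer length was not applied to SN and NSN oocytes apart, so the places in this paragraph hold for the exon union only.

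Other genes of the small RNA pathways were taken from a list of processing, Argonaute, turnover and piRNA genes, of which 60 had a feature and 51 passed the count filter. Between the ages 0 of 51 passed 1.5-fold in either direction, in NSN, in SN or in all oocytes. The shares over all features were 1.02%, 3.57% and 0.701%, so 0 of 51 is near what the features at large showed. By level per kb the highest in each role were Ddx5 and Ncbp2 among processing genes, the chaperones Hsp90aa1 and Hsp90ab1 among Argonaute partners, Xrn2 and Lin28a among turnover genes, and the Tudor proteins Tdrd12 and Tdrd1 among piRNA genes. Tdrd12 had 79.2 CPM per kb in young and 90.8 in old oocytes, and Tdrd1 69.0 and 66.7, so both were well above Ddx4 and Piwil2.

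Between configurations 1 of 51 was higher in young SN oocytes, and 3 were higher and 1 lower in old SN oocytes. These 4 genes were chosen after their values were seen. Ran, the GTPase of nuclear export, was higher by 0.64 in young and 1.22 in old SN oocytes. In old SN oocytes Ddx6, a helicase of RNA granules, was higher by 1.26, Spocd1, a nuclear piRNA effector, was higher by 0.66 and the exonuclease Dis3l2 was lower by 0.66 (log2 −0.66). Of all features, 3.21% were 1.5-fold higher in young SN oocytes, 9.46% were so in old SN oocytes and 2.94% were 1.5-fold lower in old SN oocytes. Outside these counts, Ago4, which like Piwil2 did not pass the filter, was higher by 1.82 in young and 3.00 in old SN oocytes. Other genes outside the filter went both ways, with Ago1 at −0.82 in young and Prkra at −0.65 in old SN oocytes.

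For each member with enough counts, the features whose level was most like it over the 67 NSN oocytes at equal depth were found among 7466 features, as a description. The nearest to Ago3 was Tnrc6b (Spearman 0.65), whose protein is an Argonaute partner, and then Clcn5 (0.61). Dicer1 was nearest to Unc5c (0.64) and Mief1 (0.60), Henmt1 to Stip1 (0.55), Drosha to Ppt2 (0.54) and Zfp592 (0.53), Dgcr8 to Nrf1 (0.50), Ago2 to Eif2b1 (0.50) and Ddx4 to Top2b (0.50). These values are the largest of many and the points share libraries.

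The deposited table also holds 1 old oocyte with no configuration, which is left out of all values above. In it Drosha (16.4 CPM), Dicer1 (256) and Ago3 (82.8) lay below the range of the other 45 old oocytes, and Pld6 (25.6) above it, while the other 6 members lay within.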

How the data were processed

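RNA from single oocytes was processed by the Smart-seq2 side of a protocol that separates RNA and DNA of one cell. The authors trimmed reads, aligned them to GRCm38 with HiSat2 and deposited raw counts of primary alignments to assembled transcripts of mouse oocytes. The counting program and strand setting are not given in the sources used here. Each member's feature was taken from the study's gene names or, for 8 of the 10, from the same-strand GENCODE M21 gene with the best overlap of spans. The feature that the study's table names by an older symbol of Ago3 lies inside Ago3 on the opposite strand and was not used for it. Configurations are those of the study, which excluded 1 of 88 oocytes. CPM, exact intervals, ratios and spread were computed in Python (numpy 2.4.6, scipy 1.17.1, pandas 2.3.3), with TMM factors from edgeR 4.0.16 as an alternative, and checked on simulated data. Genes named are the members and, of the other pathway genes, the 2 highest per kb in each role and any past 1.5-fold between the ages, of which there were 0. Ran, Ddx6, Spocd1, Dis3l2, Ago4, Ago1 and Prkra were named after their SN over NSN values were seen. Members and lists were chosen with earlier results of these data known. A design test was not possible because the labels name no mouse. Alternatives were 15 other settings for levels and 5 for spread, with 3 added after the data were seen. No molecular identifiers were counted.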

Additional observations from a re-analysis of the deposited data

Results flagged for a closer look

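In the 10 groups of oocytes small enough to look for a value far from the others, the lowest of the 8 old SN oocytes for Mov10l1 stood apart, at 3.38 CPM against a median of 9.20 CPM. Chance flags about 1 in 20 such groups. Piwil2 was lower in old than in young NSN oocytes and higher in old than in young SN oocytes, a difference of 1.42 in log2 ratio between the configurations, and for Ddx4 the same difference was 0.45. Neither difference was tested. The short feature on the opposite strand inside Ago3, which is in no comparison of the members, had a median of 28.8 CPM in old SN oocytes. In the 1 old oocyte without a configuration Pld6 was 25.6 CPM, above the highest of the other 45 old oocytes at 23.3 CPM.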

How the results depend on the processing

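No paired analysis was possible because the ages share no oocyte number and no test was made. Among old over young SN oocytes, the median log2 ratio of the members fell from 0.22 to 0.023 in oocytes without suffix A, and the number past the fold was 1 at a lower fold threshold (16% of all features) and 1 without the filter on mean count (20.6%). For SN over NSN the number past the fold in young oocytes was 0 at 2-fold (0.661% of features) and 2 without the filter (22.1%), and in old oocytes it was 3 at the lower threshold (34.7%) and 2 without the filter (30.1%). The median old over young ratio of spread of the members was 0.49 against 0.46 over all features, and it was 0.22 against 0.52 in NSN oocytes, 0.81 against 0.48 at equal depth, 0.72 against 0.62 with all 88 oocytes, 0.60 against 0.45 with CPM and 0.16 against 0.43 within runs. Of the summary values 134 stayed within their limits and 12 moved, and of single-gene values 516 stayed and 154 moved, with no called value changing sign. Over the settings tried Ddx4 in SN over NSN ranged from 1.30 to 1.51 in old and 0.87 to 1.204 in young oocytes, Piwil2 from 2.76 to 3.29 and 0.88 to 2.29, and Ago2 in old over young from 0.13 to 0.26. Among old over young SN oocytes, Ddx4 went from 0.30 to −0.00 and Piwil2 from 0.87 to 0.05 in oocytes without suffix A, and Pld6 from 0.16 to −0.41 in those with it and −0.31 without old oocytes 41 to 48. Every member but Ago2 changed sign under some setting in some comparison, Ddx4 in that 1 alone. The cause of these moves was not tested. TMM factors moved the median of all features by at most 0.084 in log2 (−0.08 in old SN over NSN). Counts limit Piwil2 most.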
